A study of Rattus norvegicus with 17 samples.

Results

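Rat cortical cultures carrying the A53T form of α-synuclein were compared after 2.0 µM FK506 and after its solvent, DMSO. The comparison uses 5 of the 17 libraries of the series, 3 from A53T cultures given 2.0 µM FK506 and 2 from A53T cultures given DMSO, and covers all 11247 genes of the deposited table. The libraries were chosen by their labels for genotype and treatment, and no measured value entered the choice. Both groups were primary cultures from the cerebral cortex of Rattus norvegicus, labelled as glutamatergic neurons with astrocytes, and both carried α-synuclein A53T. Where the text sets the A53T response beside that of cultures with an empty vector, 3 vector libraries at 2.0 µM FK506 and 3 in DMSO were used. The means by which the cultures were made to carry A53T and the length of exposure are not given in the sources used here. No label says whether replicates are separate cultures, so the spread between replicates may be technical. The p-values rest on that spread pooled over all 6 groups of the series, including groups outside these comparisons, and not on the compared libraries alone.

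FK506 is an immunosuppressant that enters cells, binds the small immunophilin FKBP12 and, as that complex, blocks calcineurin, a phosphatase switched on by calcium and calmodulin. Calcineurin removes phosphate from NFAT transcription factors, which then enter the nucleus, and in neurons it also acts on synaptic proteins and on the CRTC coactivators of CREB. α-Synuclein is a presynaptic protein, and its A53T variant causes a familial form of Parkinson's disease. Astrocytes answer injury and inflammatory signals with a reactive state marked by the intermediate filaments Gfap and Vim.

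Messenger RNA was read as normalized gene counts. Of 11247 genes, 2215 rose (19.7%) and 2018 fell (17.9%) at an adjusted p under 0.05 in limma, so 37.6% of all genes were called, and 5586 had an unadjusted p under 0.05. Each fold change below is a log2 difference ± standard error on the log2(value + 1) scale, with the 2.0 µM group on top, and "rose" and "fell" are used only of genes past that threshold. The median change over all genes was 0.01, and in 7250 genes (64.5%) no library of one group reached the other. Falls were the larger ones. The median fall of a called gene was -0.69 and the median rise 0.47, and 619 called genes fell by more than 2-fold while 137 rose by more than 2-fold. These counts depend on the spread pooled over groups. With the spread taken from the compared groups alone, 915 genes rose and 871 fell.

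Replicate 1 at 2.0 µM stood apart from replicates 2 and 3. It had the highest normalized total of the series, 18335540, where the 17 libraries ran from 15091428. With normalized counts taken as counts, and at means of 10 to 3000, its squared differences from replicates 2 and 3 were 10.3 and 14.5 times the noise of counting, against 3.20 for replicates 2 and 3 with each other and 1.70 for the DMSO pair. Values under 6 fell on steps, which were 1.29 normalized counts apart in it, against 1.0 and 1.06 in replicates 2 and 3 and 0.91 and 1.06 in DMSO. Wider steps mean fewer reads per normalized count. Cytosolic ribosomal protein genes stood 0.59 (median log2) above replicates 2 and 3 in it, and GABA receptor genes 0.73 below. With it left out, 1751 genes rose and 1609 fell, and 3119 genes kept both call and direction. With only 2 DMSO libraries, either one decides much of the count. Without DMSO replicate 1, 1092 genes rose and 1009 fell, and without the DMSO library that has no matching number, 938 rose and 899 fell. In those 2 fits the DMSO library that remained was assumed to vary like those of the other groups, and they are the fits meant below by a call or a count without a DMSO library.

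**Figure D1:**
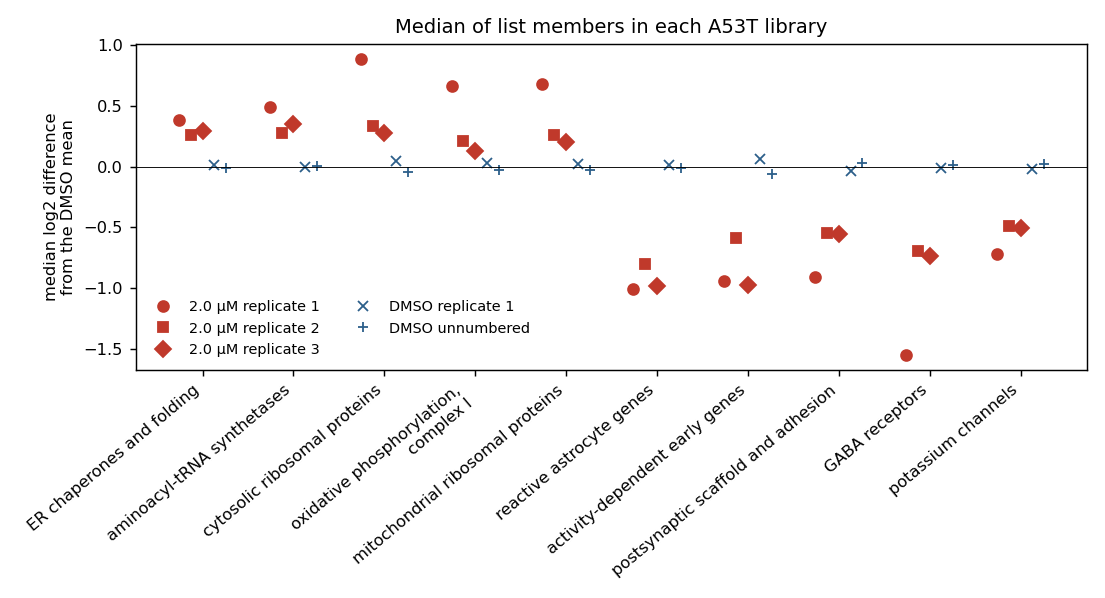
Median, over the measured members of 10 gene lists, of the log2 difference between each A53T library and the mean of the 2 DMSO libraries; red symbols are the 3 libraries at 2.0 µM FK506 and blue crosses the 2 in DMSO. Replicate 1 lies at 0.89 for ribosomal protein genes, against 0.34 and 0.28 in replicates 2 and 3, while the 3 libraries lie between -0.80 and -1.01 for reactive astrocyte genes.

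Of the 4 measured calcineurin subunit genes 1 rose, 2 fell and 1 did not pass. The phosphatase has catalytic subunits encoded by Ppp3ca, Ppp3cb and Ppp3cc and a calcium-binding subunit encoded by Ppp3r1. Ppp3ca had 1009, 1543 and 1512 normalized counts at 2.0 µM, against 2106 and 2325 in DMSO, and fell by 0.73 ± 0.18. Ppp3cb had 940.7, 1817 and 1860, against 2368 and 2470, and fell by 0.72 ± 0.24. Both groups were apart for each subunit, and replicate 1 was lowest in both. Ppp3cc, the minor catalytic form, rose (0.22 ± 0.07). Ppp3r1 overlapped between the groups (-0.13 ± 0.08, adjusted p = 0.193). Ppp3ca did not pass without the unnumbered DMSO library (adjusted p = 0.0823), nor Ppp3cb without DMSO replicate 1 (0.112) or the unnumbered library (0.15), and without 2.0 µM replicate 1 the Ppp3cb value was -0.40. Ppp3cc did not pass without DMSO replicate 1 (0.13, adjusted p = 0.267) or 2.0 µM replicate 2 (0.0683).

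Regulators and targets of the phosphatase moved in part. Nfatc2, an NFAT factor that calcineurin brings to the nucleus, had 11.9, 26.0 and 20.2 normalized counts at 2.0 µM, against 109 and 92.5 in DMSO (-2.38 ± 0.32, adjusted p = 0.000223). Nfat5, the salt-stress member that calcineurin does not control, fell by 0.35 ± 0.12, and Nfatc3 rose by 0.50 ± 0.12. Nfatc1 (-0.37 ± 0.21, adjusted p = 0.173) did not pass. Nfat5 did not pass without 2.0 µM replicate 1 (-0.21, adjusted p = 0.0773), DMSO replicate 1 (0.169) or the unnumbered library (0.0972), nor Nfatc3 without the unnumbered library (adjusted p = 0.0609). The inhibitor genes Rcan1 (-0.19 ± 0.07, adjusted p = 0.0503, and 0.0163 without 2.0 µM replicate 1) and Rcan2 (-0.15 ± 0.06, adjusted p = 0.075) lay just short of the threshold, and Rcan3 was low and overlapped (0.29 ± 0.36, adjusted p = 0.544). Akap5, which anchors calcineurin at synapses, fell by 1.64 ± 0.35, though not past the threshold without the unnumbered DMSO library (adjusted p = 0.0589), and the calcineurin inhibitor Cabin1 fell by 0.21 ± 0.06, a call lost without either DMSO library (adjusted p = 0.0761 and 0.1).

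Of 13 measured FK506-binding protein genes, 2 rose, 1 fell and 10 did not pass. Fkbp1a encodes FKBP12, the receptor of the drug. It had 15040, 12580 and 12500 normalized counts at 2.0 µM, against 12670 and 12720 in DMSO, and the groups overlapped (0.07 ± 0.10, adjusted p = 0.596). With the leading axis of variation within groups as a covariate its value was -0.14 (adjusted p = 0.0115). Fkbp5, a cochaperone of steroid receptors, had 1000, 928 and 979, against 760 and 812, and rose by 0.30 ± 0.06. Its call was lost with only the 2 groups compared in the fit (adjusted p = 0.0626). Fkbp7, of the endoplasmic reticulum (ER), rose by 0.48 ± 0.15 and Fkbp9, also of the ER, fell by 0.29 ± 0.08. These calls of Fkbp7 and Fkbp9 were lost without either DMSO library, and that of Fkbp7 also without 2.0 µM replicate 1 (adjusted p = 0.0699). The 10 that did not pass lay between -0.27 in Fkbp1b and 0.45 in Fkbp11.

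Genes of the ER folding machinery rose. Of 22 measured chaperones and folding enzymes, 13 rose and 9 did not pass, where 19.7% of all genes rose, with a list median of 0.34. Hspa5, the ER chaperone BiP, had 51600, 45590 and 55360 normalized counts at 2.0 µM, against 28280 and 29520 in DMSO (0.81 ± 0.08, adjusted p = 3.19e-05). Its relative Hsp90b1 had 29250, 26970 and 28300, against 20490 and 20310 (0.46 ± 0.06). For both genes every library at 2.0 µM was above both in DMSO. The secreted ER factor Manf (0.49 ± 0.08), the disulfide isomerase Pdia4 (0.39 ± 0.07), the calcium-binding chaperone Calr (0.43 ± 0.08), Sdf2l1, a partner of BiP (0.81 ± 0.16), Creld2 (0.65 ± 0.14) and the cochaperone Dnajc3 (0.47 ± 0.11) rose as well. Without DMSO replicate 1 and without the unnumbered library the list had 8 rises each, and Dnajc3 did not pass in the first of these fits (adjusted p = 0.0713).

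Because these genes moved together, their promoters were searched for the ER stress element, the letters CCAAT and CCACG with 9 unspecified bases between them, which the factors NF-Y and ATF6 are known to read. The search covered both strands of the 250 bases before the start of each gene in RefSeq's promoter table (build GRCr8), and no other motif was counted. The element was in 22 of 33469 promoters, or 0.066%. Among the 9014 promoters of measured genes 17 held it, or 0.189%, and 7 of these 17 genes rose. Of the ER folding list 19 of 22 genes had a promoter in the table, and 7 of those 19 held it, 5 of genes that rose. The genes of the 12 promoters without these letters in the window rose in 7 cases. The 7 stretches are shown 5′ to 3′ along the gene, with the fixed letters of the element in capitals and up to 20 bases either side, so that their spacing and strand can be compared.
Hspa5 (chr3:38452953-38453011, + strand): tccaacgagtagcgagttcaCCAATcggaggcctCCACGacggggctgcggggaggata
Hsp90b1 (chr7:23012431-23012489, - strand): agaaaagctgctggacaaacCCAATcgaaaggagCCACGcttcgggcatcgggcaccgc
Dnajc3 (chr15:102432514-102432572, + strand): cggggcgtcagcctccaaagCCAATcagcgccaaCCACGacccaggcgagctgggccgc
Canx (chr10:35158049-35158107, - strand): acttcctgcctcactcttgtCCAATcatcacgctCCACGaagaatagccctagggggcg
Calr (chr19:40213117-40213173, + strand): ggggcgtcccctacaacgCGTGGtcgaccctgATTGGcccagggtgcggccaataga
Creld2 (chr7:121789219-121789277, + strand): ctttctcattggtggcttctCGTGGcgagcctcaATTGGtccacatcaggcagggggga
Ero1b (chr17:92941438-92941496, + strand): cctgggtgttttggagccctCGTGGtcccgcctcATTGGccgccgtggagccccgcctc
The element reads along the gene in Hspa5, Hsp90b1, Dnajc3 and Canx and on the opposite strand in Calr, Creld2 and Ero1b. Its end lay 24 bases before the gene start in Hspa5 and from 114 to 213 bases before it in the others. The lectin chaperone Canx (-0.01, adjusted p = 0.967) and the oxidase Ero1b (-0.19, adjusted p = 0.401) carry it and did not pass, though Canx was higher with the axis covariate (0.28, adjusted p = 0.0101). A match is a description of these letters and was not tested as a binding site.

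Of 18 genes of ER-associated degradation and the IRE1 branch, 6 rose and 1 fell. Thus 38.9% were called, near the 37.6% of all genes. Herpud1, a scaffold of the degradation complex, had 5072, 4857 and 5261 normalized counts at 2.0 µM, against 2690 and 2751 in DMSO (0.90 ± 0.06, adjusted p = 3.55e-06). Both groups were tight, and all 3 treated libraries were well above both controls. The channel proteins Derl1 (0.30 ± 0.06) and Derl3 (0.62 ± 0.18) and the ubiquitin ligase Syvn1 (0.22 ± 0.05) rose, and Atf6b, a sensor of ER stress, fell (-0.20 ± 0.06). Without the unnumbered DMSO library 3 genes of this list rose and Derl3 did not pass (adjusted p = 0.132), without DMSO replicate 1 Syvn1 did not (0.0753), and Atf6b passed in neither fit (0.082 and 0.112).

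The integrated stress response, in which the kinases PERK and GCN2 slow translation and raise the factor ATF4, had 11 of 17 genes higher and 2 lower, with a median of 0.70. Ddit3, the stress factor CHOP, had 20960, 13570 and 13440 normalized counts at 2.0 µM, against 5731 and 6162 in DMSO (1.40 ± 0.19). Its level was highest in replicate 1 and more than doubled in replicates 2 and 3 too. Atf3, a target of ATF4, had 2922, 2566 and 2913, against 1291 and 1352 (1.08 ± 0.12). Ppp1r15a, which restores translation, rose by 0.87 ± 0.09. Chac1, which degrades glutathione, rose by 0.70 ± 0.07, the pseudokinase Trib3 by 0.78 ± 0.12, and Atf4 itself by 0.62 ± 0.11. The secreted cytokine Gdf15 went against the list. It had 244, 189 and 275, against 380 and 394 (-0.73 ± 0.20), and did not pass without DMSO replicate 1 (adjusted p = 0.0624) or the unnumbered library (0.0846). The GCN2 gene Eif2ak4 fell by 0.25 ± 0.09, a call lost without either DMSO library (0.0754 and 0.286) and without 2.0 µM replicate 1 (0.132) or 2 (0.0799).

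Genes of amino acid supply that ATF4 is known to control rose most often among the tRNA synthetases. Of 21 aminoacyl-tRNA synthetase genes, which load amino acids on tRNAs, 15 rose and 6 did not pass (median 0.36). Lars had 4347, 4078 and 4381 normalized counts at 2.0 µM, against 2944 and 2898 in DMSO (0.55 ± 0.05), and Sars had 16920, 13400 and 13520, against 9171 and 9317 (0.65 ± 0.10). In both genes the groups were apart. Of 15 genes of serine, one-carbon and amino acid synthesis, 4 rose and 11 did not pass (median 0.17), where 19.7% of all genes rose. These 4 were the asparagine synthetase Asns (0.41 ± 0.05), the mitochondrial folate enzymes Shmt2 (0.47 ± 0.07) and Mthfd2 (0.54 ± 0.08) and the serine phosphatase Psph (0.50 ± 0.12). Of 13 amino acid transporters 4 rose and 2 fell (median 0.07), beside 19.7% and 17.9% of all genes. The cationic transporter Slc7a3 rose by 0.54 ± 0.07. The glutamine carrier Slc1a5 fell by 1.74 ± 0.24, and the cystine carrier Slc7a11 had 139, 170 and 163, against 279 and 238 (-0.71 ± 0.13). Without either DMSO library 1 transporter rose.

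Of 25 p53 target and apoptosis genes 14 rose and 2 fell, with a median of 0.37. Cdkn1a, the cell cycle inhibitor p21, had 3757, 2826 and 3806 normalized counts at 2.0 µM, against 858 and 926 in DMSO (1.94 ± 0.14, adjusted p = 3.82e-06). The proapoptotic Bbc3 (PUMA) had 2034, 1583 and 1714, against 774 and 859 (1.11 ± 0.12), and Ccng1, a cyclin that p53 induces, had 5979, 6277 and 6698, against 3533 and 3508 (0.84 ± 0.06). No library of one group reached the other in these 3 genes. The stress genes Gadd45a (1.03 ± 0.12) and Btg2 (0.89 ± 0.08) rose. The kinase Plk2 (-1.03 ± 0.09) and Gadd45b (-1.97 ± 0.19), both also genes of neuronal activity, fell.

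Heat shock genes were mixed, with 6 of 23 higher and 3 lower, or 39.1% called, near the 37.6% of all genes. The small heat shock protein gene Cryab had 2532, 1554 and 2204 normalized counts at 2.0 µM, against 592 and 647 in DMSO (1.73 ± 0.21), while its relative Hspb1 had 193, 112 and 144, against 468 and 430 (-1.61 ± 0.27). Of 22 antioxidant genes controlled by Nrf2, 6 rose and 4 fell, or 45.5% called, beside the same share of all genes. Osgin1, a growth inhibitor induced by oxidative stress, rose by 1.22 ± 0.15 and the heme oxygenase Hmox1 by 0.55 ± 0.13, while the quinone reductase Nqo1 fell by 0.44 ± 0.13. The Nqo1 call was lost without DMSO replicate 1 (adjusted p = 0.132), the unnumbered library (0.0697) or 2.0 µM replicate 2 (0.0592), and Hmox1 lay at 0.0501 without the unnumbered library. Without the unnumbered DMSO library the heat shock list had 1 rise and 2 falls and the Nrf2 list 2 of each, without DMSO replicate 1 they had 2 rises and 1 fall each, and without 2.0 µM replicate 3 the heat shock list had 6 falls.

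Genes of protein synthesis rose together, and replicate 1 carried much of this. Of 69 cytosolic ribosomal protein genes 38 rose and 31 did not pass, with a median of 0.50, but 3 rose without 2.0 µM replicate 1, 62 without replicate 3, 1 without DMSO replicate 1 and, by limma, 0 without the unnumbered library, where 9 were higher at an unadjusted p under 0.05. Rpl4 had 45790, 32880 and 33820 normalized counts at 2.0 µM, against 25860 and 24660 in DMSO (0.55 ± 0.15). Replicate 1 was the highest library, and the other two were also above both controls, but the call was lost without either DMSO library (adjusted p = 0.0611 and 0.0971). With the leading axis of variation within groups as a covariate, the list median was 0.08. These genes have many processed copies in the genome, so reads can be split between them. Mitochondrial ribosomal protein genes rose in 12 of 35 cases, in 5 without 2.0 µM replicate 1, in 23 without replicate 3, and in at most 1 without a DMSO library. Ribosome assembly genes depended less on it. Of 23, 12 rose with and without replicate 1, among them the nucleolar GTPase Gnl3 (0.40 ± 0.08) and the assembly factor Nop58 (0.30 ± 0.05). They numbered 6 without the unnumbered DMSO library. Of 44 translation factors, 19 rose and 1 fell, and 15 rose without 2.0 µM replicate 1, 9 without DMSO replicate 1 and 4 without the unnumbered library. The eIF2B subunit Eif2b3 rose by 0.72 ± 0.14 and the initiation factor Eif4b by 0.34 ± 0.05, while the scaffold Eif4g3 had 980, 1124 and 1054, against 1641 and 1794, and fell by 0.71 ± 0.10.

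Proteasome genes rose in 7 of 36 cases, near the share of all genes, and the strongest was the immunoproteasome subunit Psmb8, with 450, 252 and 312 normalized counts at 2.0 µM, against 130 and 138 in DMSO (1.29 ± 0.23). The list had 13 rises without 2.0 µM replicate 3 and 1 without either DMSO library. Of 25 autophagy genes 10 rose and 2 fell, with 5 rises without either DMSO library. The selective receptor Optn (0.45 ± 0.07), the conjugation factor Atg12 (0.47 ± 0.08) and the lysosomal regulators Tfe3 (0.39 ± 0.07) and Tfeb (0.74 ± 0.17) rose, and the nucleation factor Becn1 fell (-0.39 ± 0.05). Of 33 lysosomal genes 9 rose and 4 fell, with 4 rises without the unnumbered library. Among them the α-galactosidase Gla had 1661, 1753 and 1734, against 1288 and 1339 (0.38 ± 0.06). Of 16 Parkinson and synuclein genes 2 rose and 4 fell, with 1 fall without either DMSO library. In this list 37.5% of genes were called, beside 37.6% of all genes, and in the lysosomal list 39.4%. The ubiquitin ligase subunit Fbxo7 (0.37 ± 0.08) and the phospholipase Pla2g6 (0.36 ± 0.08) rose, and the kinase Lrrk2 fell (-0.74 ± 0.20). Lrrk2 did not pass without either DMSO library (adjusted p = 0.0776 and 0.0697), Pla2g6 without DMSO replicate 1 (0.0533), nor Tfeb without the unnumbered library (0.0517).

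**Figure D2:**
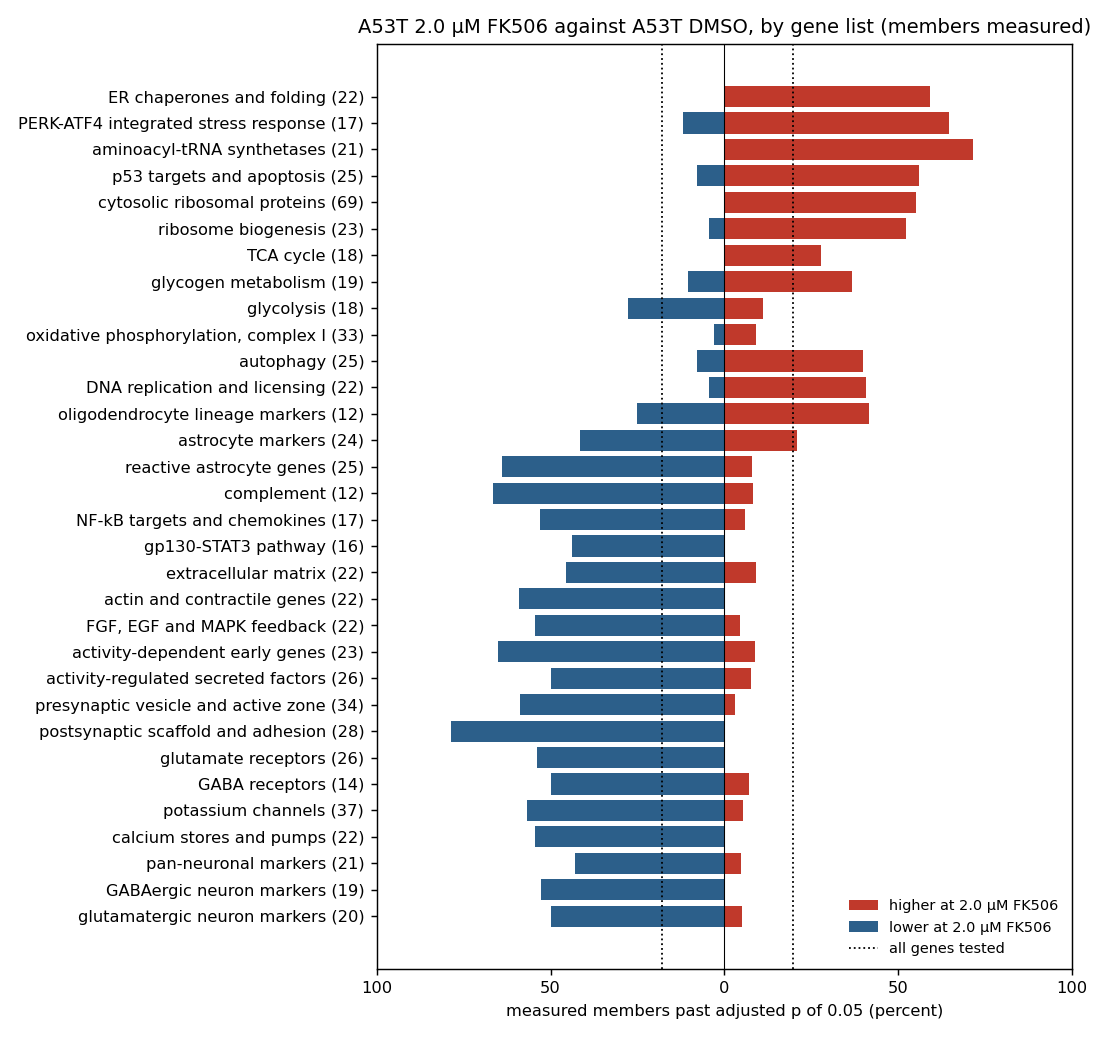
Share of the measured members of 32 gene lists that were higher (red, to the right) or lower (blue, to the left) at 2.0 µM FK506 than in DMSO in A53T cultures at an adjusted p under 0.05; the number measured is in brackets and dotted lines mark the shares of all genes, 19.7% higher and 17.9% lower. Stress, tRNA synthetase and ribosome lists extend to the right, and reactive astrocyte, synaptic and channel lists to the left.

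Genes of energy metabolism did not all move the same way. Of 18 tricarboxylic acid cycle genes 5 rose and 13 did not pass. Thus 27.8% were called, each as a rise, where 37.6% of all genes were called and 19.7% rose. The isocitrate dehydrogenase Idh2 had 1288, 1034 and 1123 normalized counts at 2.0 µM, against 644 and 631 in DMSO (0.84 ± 0.11), and the succinate dehydrogenase subunit Sdhd rose by 0.39 ± 0.08. Of 18 glycolysis genes 2 rose and 5 fell, or 38.9% called, near the share of all genes. The glucose transporter Slc2a1 rose by 0.41 ± 0.06 and the aldolase of astrocytes, Aldoc, had 13450, 10960 and 11210, against 7909 and 7761 (0.59 ± 0.10). The hexokinase Hk1 had 7254, 7234 and 7347, against 9194 and 9190 (-0.34 ± 0.04), and the lactate dehydrogenase Ldha fell by 0.53 ± 0.10. Of 19 glycogen genes 7 rose and 2 fell, or 47.4% called. Pygm, the glycogen phosphorylase of muscle that astrocytes also make, had 1513, 1425 and 1567, against 809 and 823 (0.88 ± 0.07, adjusted p = 9.98e-06), and the synthase Gys1 rose by 0.45 ± 0.08. Without either DMSO library 3 glycogen genes rose. With the axis covariate, and likewise after quantile normalization, 10 glycolysis genes fell. The tricarboxylic acid cycle had 3 rises without DMSO replicate 1 and 2 without the unnumbered library, where glycolysis had 2 falls. Of 33 complex I genes 3 rose and 1 fell, and of 33 genes of complexes III to V likewise 3 and 1, where 19.7% of all genes rose. Replicate 1 stood 0.522 and 0.545 (median log2) above replicates 2 and 3 in these lists. The list medians were 0.34 and 0.32, against 0.01 for all genes. Without 2.0 µM replicate 1 these medians were 0.16 and 0.13 and the rises no longer passed, as without either DMSO library, while 13 and 12 genes rose without 2.0 µM replicate 3. With the axis covariate the medians were -0.05 and -0.06, and 1 gene rose and 5 fell in complex I, against 1 and 9 in complexes III to V.

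Cholesterol synthesis genes split, with 8 of 23 higher and 7 lower. Hmgcs1, the synthase of an early step, had 3668, 4462 and 4443 normalized counts at 2.0 µM, against 5669 and 5699 in DMSO (-0.44 ± 0.09). The later enzymes Dhcr7 (0.64 ± 0.07), Fdft1 (0.57 ± 0.09) and Sqle (0.35 ± 0.07) rose. This early step was lower and these later steps higher in the same libraries. Of 12 genes of cholesterol export, 3 rose and 1 fell, or 33.3% called, beside 37.6% of all genes. The rises included the lysosomal sterol carriers Npc1 (0.42 ± 0.09) and Npc2 (0.65 ± 0.14), of which Npc1 did not pass without the unnumbered DMSO library. Of 18 genes of fatty acid synthesis and storage 1 rose and 3 fell, both below the shares of all genes. The cholesterol synthesis list had 5 rises without 2.0 µM replicate 1, 5 rises and 4 falls without DMSO replicate 1, and 4 and 2 without the unnumbered library.

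Reactive astrocyte genes fell, with 16 of 25 lower and 2 higher (median -0.80). Gfap, the astrocyte intermediate filament, had 7320, 6555 and 6176 normalized counts at 2.0 µM, against 36400 and 34950 in DMSO (-2.42 ± 0.09, adjusted p = 1.91e-08). Vim, its partner filament, had 4153, 3543 and 3796, against 18380 and 16970 (-2.21 ± 0.13). Cp, the copper-carrying ferroxidase, had 362, 395 and 494, against 2498 and 2348 (-2.55 ± 0.13). In these genes the 3 treated libraries were near each other and far under both controls. The protease inhibitor Timp1 (-2.24 ± 0.19), the membrane protein Emp1 (-1.85 ± 0.17) and Osmr, a receptor of the gp130 family (-1.68 ± 0.25), fell too. The 2 members that rose, Psmb8 and Fkbp5, belong also to the immunoproteasome and to the glucocorticoid targets. The count was 16 without replicate 1 and 15 or 16 without a DMSO library.

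General astrocyte markers did not follow as one group. Of 24 measured, 10 fell and 5 rose, with a median of -0.24. The water channel Aqp4 had 1085, 1682 and 1758 normalized counts at 2.0 µM, against 3456 and 3330 in DMSO (-1.20 ± 0.18). The lipid carrier Fabp7 had 3765, 3330 and 3245, against 9037 and 8367 (-1.34 ± 0.10), the membrane protein Mlc1 fell by 0.67 ± 0.05 and the glutamate transporter Slc1a3 by 0.57 ± 0.08. The glutamate transporter Slc1a2 rose instead and had 206, 152 and 195, against 112 and 126 (0.62 ± 0.16). The summed level of the 24 markers was 102864 to 109913 at 2.0 µM, against 122726 and 129830 in DMSO. In bulk RNA, fewer cells of a type and less RNA per cell cannot be told apart. Without DMSO replicate 1, 2 markers rose and 5 fell, and without the unnumbered library 3 and 6. Slc1a2 did not pass without DMSO replicate 1 (adjusted p = 0.0845).

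Inflammatory signalling genes fell beside them. Of 12 genes under the complement heading 8 fell and 1 rose. The inhibitor Serping1 had 1732, 1464 and 1489 normalized counts at 2.0 µM, against 4765 and 4490 in DMSO (-1.57 ± 0.09), and the serine protease C1s had 241, 258 and 273, against 536 and 476 (-0.97 ± 0.10). The list also holds C1ql2, which rose (1.17 ± 0.15), and C1ql3, which fell (-1.10 ± 0.15), and these are synaptic organizers related to C1q and not part of the cascade. Of 17 NF-κB targets and chemokines 9 fell and 1 rose, with the chemokines Cx3cl1 (-0.55 ± 0.06) and Cxcl12 (-1.12 ± 0.12) and the subunit Nfkb1 (-0.58 ± 0.10) lower. Of 16 genes of gp130 and STAT3 signalling 7 fell and 9 did not pass. Those that fell included Stat3 itself, with 2867, 3115 and 3281, against 4176 and 4260 (-0.45 ± 0.08), and its feedback inhibitor Socs3 (-1.20 ± 0.26). The Socs3 call was lost with only the 2 groups compared in the fit (adjusted p = 0.0563). Of 23 interferon and MHC class I genes 7 rose and 3 fell, where 19.7% of all genes rose and 17.9% fell. The list median was 0.19, and -0.003 with the axis covariate. The peptide transporter Tap1 (0.75 ± 0.12) and the loading factor Tapbp (0.41 ± 0.08) rose, and Ifitm3 (-1.84 ± 0.28) fell. Without DMSO replicate 1 the NF-κB list had 5 falls and the interferon list 4 rises; without the unnumbered library these were 6 and 3.

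Matrix and actin genes fell in part. Of 22 matrix genes 10 fell and 2 rose, and of 22 actin and contractile genes 13 fell and 9 did not pass. The proteoglycan Fmod had 136, 136 and 157 normalized counts at 2.0 µM, against 1171 and 1028 in DMSO (-2.94 ± 0.12), and Thbs4, a secreted thrombospondin, had 8.06, 11.01 and 11.7, against 123 and 97.7 (-3.31 ± 0.20). For both, every treated library was far under the lower control. Anxa1, an anti-inflammatory phospholipid-binding protein, had 164, 142 and 153, against 1049 and 1003 (-2.74 ± 0.13). The brain proteoglycan Bcan rose instead, with 9033, 8182 and 8536, against 6234 and 6241 (0.46 ± 0.07). Of 21 metalloproteases and inhibitors 9 fell and 3 rose, of 24 TGF-β and BMP genes 9 fell and 1 rose, and of 22 genes of FGF, EGF and MAPK feedback 12 fell and 1 rose. Examples are the protease Adamts9 (-2.07 ± 0.25), the BMP targets Id2 (-1.21 ± 0.10) and Id3 (-2.89 ± 0.30) and the MAPK phosphatase Dusp5 (-1.01 ± 0.16), with the ligand Bmp7 higher (1.03 ± 0.16). The actin list and the feedback list had 8 falls each without DMSO replicate 1, and 9 and 6 without the unnumbered library.

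Genes that neuronal activity induces fell. Of 23 early genes 15 fell and 2 rose (median -0.86). Fosb, an AP-1 factor, had 514, 808 and 482 normalized counts at 2.0 µM, against 3196 and 2509 in DMSO (-2.27 ± 0.25). Arc, which acts at active synapses, had 758, 1029 and 543, against 2137 and 1964 (-1.45 ± 0.19), and the factor Klf10 had 515, 643 and 569, against 1470 and 1472 (-1.36 ± 0.10). No treated library reached a control in these 3 genes. The orphan receptor Nr4a3 (-2.16 ± 0.28) and the scaffold gene Homer1 (-0.64 ± 0.08) fell, and the 2 that rose were Jun (0.57 ± 0.06) and Ier2 (0.89 ± 0.17). Of 26 secreted factors that activity regulates, 13 fell and 2 rose. Nptx2, a pentraxin that gathers AMPA receptors, had 134, 172 and 102, against 1070 and 1245 (-3.11 ± 0.21). The neurotrophin Bdnf had 550, 737 and 473, against 1446 and 1391 (-1.30 ± 0.14), the opioid precursor Penk fell by 1.16 ± 0.19 and the processing enzyme Pcsk2 by 0.99 ± 0.07. Scg3, a granin, rose (0.22 ± 0.06), though not past the threshold without the unnumbered DMSO library (adjusted p = 0.0855).

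The primary transcripts of miR-132 and miR-212 were lower as well. They were picked out after their values were seen and are known targets of CREB in neurons. Mir212 had 5.34, 5.003 and 2.18 normalized counts at 2.0 µM, against 39.6 and 29.6 in DMSO (-2.83 ± 0.36, adjusted p = 0.000156). Mir132 had 10.4, 9.005 and 6.42, against 52.3 and 47.6 (-2.43 ± 0.67, adjusted p = 0.0142), a call lost without DMSO replicate 1 (adjusted p = 0.0816), without the unnumbered library (0.0751) and after quantile normalization (0.0591). These are reads of an mRNA library over the miRNA genes, and the mature miRNAs were not measured. Both lie on chromosome 10, 222 bases apart between miR-212-3p and miR-132-5p in GRCr8, so their reads may come from 1 transcript. Their mature sequences from RefSeq are printed with the seed, bases 2 to 8, in capitals, to show which of them would share targets.
rno-miR-132-3p (chr10:60522091-60522112, + strand): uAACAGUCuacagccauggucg
rno-miR-212-3p (chr10:60521811-60521832, + strand): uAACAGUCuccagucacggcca
rno-miR-132-5p (chr10:60522055-60522076, + strand): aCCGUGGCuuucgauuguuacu
rno-miR-212-5p (chr10:60521771-60521794, + strand): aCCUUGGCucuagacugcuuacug
The 3p forms have the same seed and are identical at 17 of 22 positions, and the 5p forms differ within the seed.

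Synaptic genes fell on both sides of the cleft. Of 28 postsynaptic scaffold and adhesion genes 22 fell and 6 did not pass (median -0.65), and of 34 presynaptic genes 20 fell and 1 rose (median -0.57). Dlgap3, a scaffold of the postsynaptic density, had 1460, 1477 and 1130 normalized counts at 2.0 µM, against 2843 and 2935 in DMSO (-1.10 ± 0.12), and the kinase Camk2b had 9357, 9821 and 8522, against 12220 and 12520 (-0.42 ± 0.06). On the presynaptic side the endocytic GTPase Dnm1 had 14230, 13750 and 12800, against 18770 and 19390 (-0.49 ± 0.06). In these 3 genes replicate 1 was not the lowest library, but over the lists it stood 0.43 (postsynaptic) and 0.30 (presynaptic) below replicates 2 and 3 (median log2). The vesicle protein Sv2b (-0.78 ± 0.12), the synapsin Syn1 (-0.40 ± 0.06) and the neurexin Nrxn2 (-0.55 ± 0.06) fell, and the secretory synaptotagmin Syt4 rose (0.39 ± 0.07). Without replicate 1 the postsynaptic list had 18 falls and the presynaptic list 19. Without DMSO replicate 1 they had 14 and 13, and without the unnumbered library 9 and 8. With the axis covariate the postsynaptic median was -0.38 and the presynaptic one -0.31.

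Receptors and channels followed. Of 26 glutamate receptor genes 14 fell and 12 did not pass, and of 14 GABA receptor genes 7 fell and 1 rose. The AMPA receptor partner Cacng8 had 192, 266 and 221 normalized counts at 2.0 µM, against 490 and 556 in DMSO (-1.21 ± 0.12), and the GABA-A subunit Gabra5 had 688, 771 and 685, against 1126 and 1105 (-0.64 ± 0.07). Of 37 potassium channel genes 21 fell and 2 rose. Kcnc1, a fast channel, had 133, 156 and 137, against 253 and 269 (-0.88 ± 0.11). Kcnn3, a calcium-gated small-conductance channel, rose, with 862, 787 and 740, against 444 and 468 (0.80 ± 0.08). Of 23 calcium and sodium channel genes 12 fell and 11 did not pass, with the T-type channels Cacna1g (-0.69 ± 0.10) and Cacna1h (-0.65 ± 0.09) among them. Of 22 genes of calcium stores, pumps and calmodulin 12 fell and 10 did not pass. The plasma membrane calcium pump Atp2b2 had 1079, 1286 and 1104, against 1810 and 2011 (-0.73 ± 0.09). In the GABA receptor list replicate 1 was 0.73 (median log2) below replicates 2 and 3, and 6 genes fell without it. Without DMSO replicate 1 and without the unnumbered library, the glutamate receptor list had 5 and 4 falls, the GABA receptor list 4 and 3, the calcium and sodium channel list 6 each and the potassium channel list 15 and 12.

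Neuron markers fell in part. Of 21 pan-neuronal markers 9 fell and 1 rose, with a median of -0.16. The neurofilament genes went apart: Nefl had 1662, 2009 and 2089 normalized counts at 2.0 µM, against 3469 and 3650 in DMSO (-0.90 ± 0.11), while Nefm had 3081, 3247 and 3283, against 2508 and 2640 (0.32 ± 0.05). The summed level of the 21 markers was 131594 to 154148 at 2.0 µM, against 144123 and 148223 in DMSO, so the groups overlapped. Of 20 glutamatergic markers 10 fell and 1 rose, with summed levels of 22196 to 24928, against 32388 and 33348. The vesicular glutamate transporter Slc17a7 had 2234, 3484 and 3671, against 6672 and 7154 (-1.18 ± 0.18). Of 19 GABAergic markers 10 fell and 9 did not pass, with summed levels of 23366 to 29044, against 33376 and 33992. Calb1, a calcium buffer, fell by 0.88 ± 0.08 and Gad1, which makes GABA, by 0.68 ± 0.09. The part of these summed levels in the synaptic results was not tested. The glutamatergic list had 6 falls without DMSO replicate 1 and 4 without the unnumbered library, where the GABAergic list had 6. Of 37 axon guidance genes 19 fell and 1 rose, with the receptor Ephb1 (-0.60 ± 0.09) lower, and of 21 tubulin and microtubule genes 8 fell and 2 rose, with Tubb4a (-0.65 ± 0.05) and Tubb6 (-1.47 ± 0.14) lower. The guidance list had 10 and 9 falls without DMSO replicate 1 and without the unnumbered library.

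**Figure D3:**
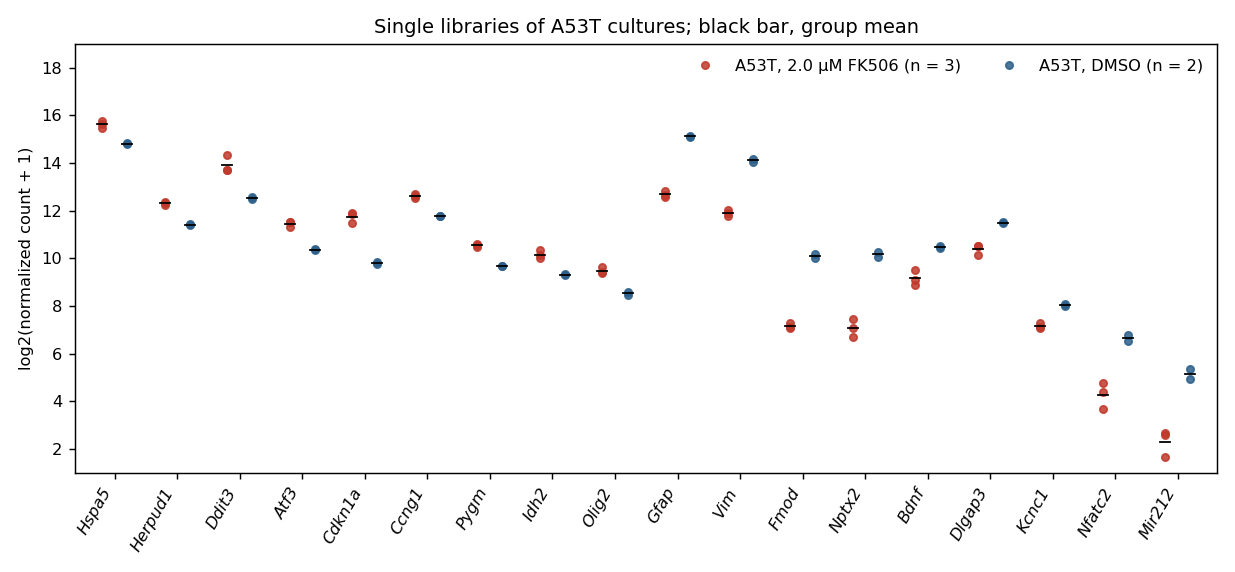
Normalized counts of 18 genes in single A53T libraries on a log2 scale, the 3 libraries at 2.0 µM FK506 in red on the left of each pair and the 2 in DMSO in blue on the right; black bars are group means. In all 18 the groups are apart, with Hspa5 to Olig2 higher and Gfap to Mir212 lower at 2.0 µM. Some were named by a rule that requires this, and the others for small p-values or after their values were seen. Of all genes 64.5% were apart.

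Markers of other cell types were looked at for cells that such a culture could also hold. Of 16 microglia markers 2 were measured and rose, both of genes that other cells also make, and the measured ones did not include Aif1, Cx3cr1, Csf1r, Itgam or P2ry12. Cd68 had 754, 646 and 696 normalized counts at 2.0 µM, against 307 and 299 in DMSO (1.20 ± 0.16). Of 12 oligodendrocyte lineage markers 5 rose and 3 fell. The lineage factors Olig2, with 676, 678 and 794, against 382 and 353 (0.96 ± 0.09) and Olig1, with 3166, 3133 and 2937, against 2104 and 2115 (0.54 ± 0.07), rose, while the precursor proteoglycan Cspg4 (-0.86 ± 0.17) and the myelin gene Mbp (-0.64 ± 0.19) fell. Mbp did not pass without the unnumbered DMSO library (-0.41, adjusted p = 0.218) or 2.0 µM replicate 1 (0.0581). The summed level of these 12 markers was 7902 to 9382, against 9179 and 9213, and without the unnumbered DMSO library the list had 3 rises and 1 fall. Of 11 fibroblast and meningeal markers 5 fell and 6 did not pass, and the defining collagen Col1a1 was near the bottom of the scale in all libraries (5.35, 1.001 and 6.40, against 14.6 and 11.7). Their summed level was 611 to 716, against 2285 and 2307, where Fmod alone made 1171 and 1028 of the DMSO sums. The part of these cells in the matrix results was not tested. Of 14 endothelial and pericyte markers 3 were measured and did not pass.

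Smaller gene groups were mixed. Of 22 DNA replication genes 9 rose and 1 fell, with the licensing factor Cdt1, at 233, 195 and 230 normalized counts at 2.0 µM, against 114 and 94.7 in DMSO (1.07 ± 0.14), and the clamp Pcna (0.35 ± 0.06). The list had 5 rises without DMSO replicate 1. Of 12 mitosis genes 2 rose and 10 did not pass, so this group stood near the share of all genes. Dio2, which activates thyroid hormone, had 74.1, 51.0 and 75.2, against 7.14 and 11.8 (2.71 ± 0.22), while 4 of the 10 thyroid genes fell, a count of 1 without either DMSO library. Of 14 glucocorticoid targets 4 rose and 6 fell, with Tsc22d3 (0.54 ± 0.08) higher and Sgk1 (-0.40 ± 0.11) lower. Of 14 clock genes 3 rose and 5 fell, with Dbp (0.39 ± 0.10) higher and Npas2 (-0.90 ± 0.12) lower. Of 16 iron and metal genes 7 fell and 1 rose; the zinc exporter Slc30a1 fell by 0.86 ± 0.13. Sgk1 did not pass without either DMSO library (adjusted p = 0.0995 and 0.0715), nor Dbp without the unnumbered one (0.115). Without the unnumbered library the glucocorticoid and clock lists had 3 falls each, and limma called 0 of the clock rises, where 3 clock genes were higher at an unadjusted p under 0.05. The clock list had 2 falls without DMSO replicate 1, and in that fit limma called 0 of the glucocorticoid falls, where 4 were lower at an unadjusted p under 0.05.

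The 15 largest rises and falls among genes with at least 100 normalized counts in the higher group add genes outside the lists. Hapln3, a link protein of the matrix, had 250, 182 and 258 normalized counts at 2.0 µM, against 52.7 and 40.5 in DMSO, the largest rise (2.28 ± 0.22). It was followed by the troponin Tnnc2 (2.10 ± 0.26), Cdkn1a, Cryab, Cilp2 (1.61 ± 0.20), the sarcoglycan Sgca (1.59 ± 0.16), Gtse1, which holds back p53 (1.56 ± 0.20), the acetylcholine receptor subunit Chrne (1.49 ± 0.14), Shq1, Ddit3, Isg20, Cox6a2, G0s2, the epoxide hydrolase Ephx1 (1.33 ± 0.10) and the DNA repair enzyme Mgmt (1.32 ± 0.25). Slc14a1, the urea transporter, had 2.94, 7.004 and 13.9, against 86.5 and 117, the deepest fall (-3.71 ± 0.52). The sodium channel Scn7a had 37.4, 70.0 and 65.7, against 622 and 508 (-3.31 ± 0.25), and Fam107a, an actin-linked gene, had 61.6, 61.0 and 61.5, against 466 and 462 (-2.90 ± 0.11). The others were Thbs4, Nptx2, Fmod, Id3, Acan (-2.78 ± 0.23), Anxa1, Egr3 (-2.74 ± 0.46), Cpeb4 (-2.63 ± 0.68), Cp, Gfap, Lgals3 (-2.41 ± 0.25) and Nfatc2. Cpeb4 did not pass without the unnumbered DMSO library (adjusted p = 0.0828).

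The response was then set beside that of vector cultures, where 47.2% of genes were called. Of the genes called in A53T, 2652 were also called in vector, 62.7% of the A53T calls and 50% of the vector calls, and 2533 of these moved the same way, 1348 higher and 1185 lower, and 119 the opposite way. The fold changes of all genes had r = 0.48 across genes between the comparisons, which share no library; genes are not independent replicates. The difference of the responses, A53T minus vector, passed in 1641 genes (14.6%), 916 higher (8.14%) and 725 lower (6.45%). Without A53T DMSO replicate 1, 350 differences were higher and 299 lower, and without the unnumbered A53T DMSO library 334 and 298. Leaving out 1 vector library gave 511 to 1074 higher and 421 to 866 lower, and leaving out A53T 2.0 µM replicate 3 gave 1363 and 1249.

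**Figure D4:**
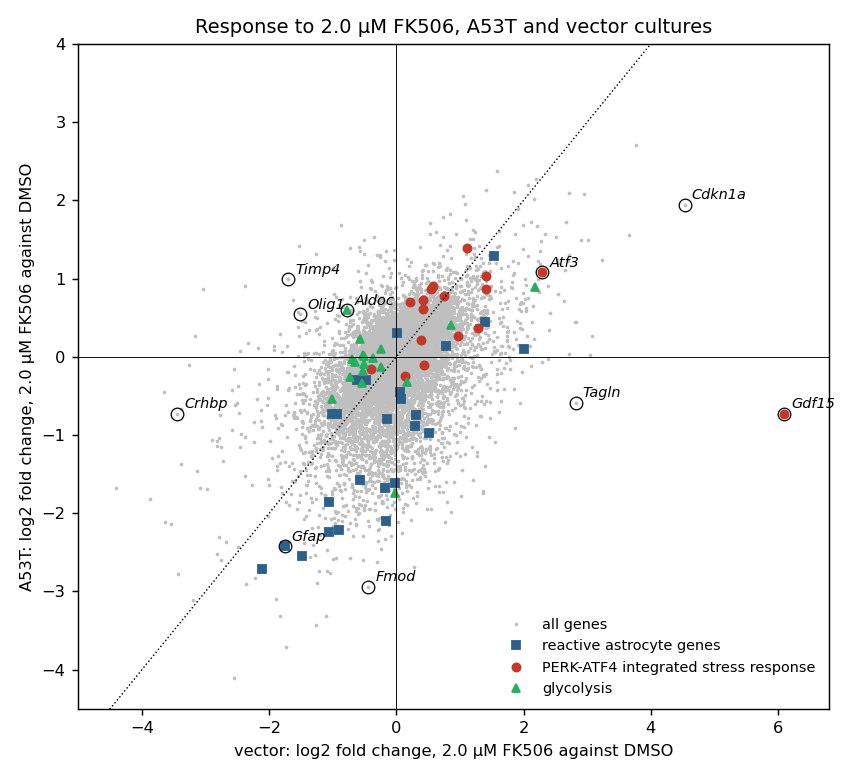
Log2 fold change at 2.0 µM FK506 against DMSO of each gene in A53T cultures (vertical axis) and in vector cultures (horizontal axis), with all genes in grey and 3 gene lists in colour; ringed points are named. Points on the dotted line changed equally, and Gdf15 lies far to the right at 6.10 in vector and -0.73 in A53T.

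The gene with the widest difference was Gdf15. In A53T cultures it had 244, 189 and 275 normalized counts at 2.0 µM, against 380 and 394 in DMSO, and in vector cultures 3927, 4761 and 3743, against 47.6, 57.1 and 75.6. It thus stood lower in A53T and far higher in vector, and the responses differed by -6.83 ± 0.26 (adjusted p = 3.01e-08). Cdkn1a rose in both, by 1.94 in A53T and 4.53 in vector, a difference of -2.59 ± 0.19. The contractile gene Tagln had 1258, 817 and 1177, against 1650 and 1559, in A53T cultures, and 5817, 6809 and 5411, against 828, 770 and 958, in vector cultures (difference -3.41 ± 0.26). The AP-1 factors Fosl1 (-2.78 ± 0.19) and Fosl2 (-2.78 ± 0.26) had the same pattern, lower in A53T and higher in vector. The A53T falls of Gdf15 and Tagln did not pass without either A53T DMSO library, while the differences of these 5 genes passed in every fit that left out a library.

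The 6 largest positive differences belonged to genes that were lower at 2.0 µM than in DMSO in vector cultures. Timp4, a metalloprotease inhibitor, had 427, 421 and 364 normalized counts in A53T at 2.0 µM, against 218 and 187 in A53T DMSO, and 65.3, 94.8 and 80.0 in vector at 2.0 µM, against 244, 259 and 276 in vector DMSO (difference 2.69 ± 0.20). Olig1 had 860, 964 and 864 in vector at 2.0 µM, against 2498, 2573 and 2588, and its A53T rise gave a difference of 2.06 ± 0.10. The peptide Apln (2.39 ± 0.17), the corticotropin-binding protein Crhbp (2.72 ± 0.27), the thyroid hormone transporter Slco1c1 (2.52 ± 0.22) and Btbd17 (2.34 ± 0.29) were the others. Crhbp fell in both backgrounds (-0.73 in A53T and -3.44 in vector), and its DMSO levels already differed, at 88.2 and 63.9 in A53T and 410, 412 and 432 in vector. Its A53T fall did not pass without A53T DMSO replicate 1 (adjusted p = 0.16).

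**Figure D5:**
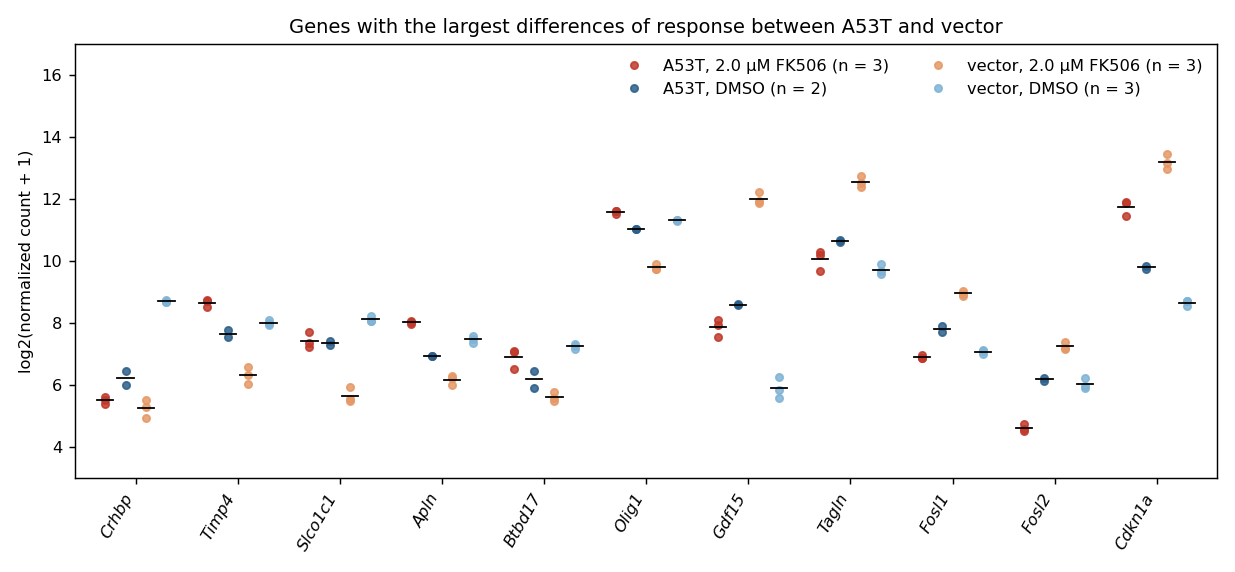
Normalized counts on a log2 scale of 11 of the genes with the largest differences of response, in A53T at 2.0 µM FK506, A53T in DMSO, vector at 2.0 µM and vector in DMSO, from left to right for each gene; points are libraries and black bars group means. For Gdf15 the vector groups lie far apart and the A53T groups near each other.

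The share of members whose responses differed was not the same in each list. Of 18 glycolysis genes the difference passed in 13, 12 higher and 1 lower, beside 14.6% of all genes; 14 of the 18 fell in vector, and in A53T 5 fell, or 10 with the axis covariate or after quantile normalization. The 12 higher glycolysis differences were 7 without A53T DMSO replicate 1, 6 without the unnumbered library and 8 after quantile normalization. Of 18 tricarboxylic acid cycle genes it passed in 9, each higher, where 8 of the 18 fell in vector and 5 rose in A53T. The count was 6 after quantile normalization and 15 with the axis covariate, and fewer passed without either A53T DMSO library. The list median of the difference was 0.38, with 0.41 without A53T DMSO replicate 1 and 0.36 without the unnumbered library. In complex I and in complexes III to V the difference passed in 11 of 33 each, every one higher, and in 9 each without A53T 2.0 µM replicate 1. Without A53T DMSO replicate 1 these were 1 and 3, and without the unnumbered library limma called 0 in each list, where 19 and 15 were higher at an unadjusted p under 0.05. Reactive astrocyte genes differed in 15 of 25 cases, 14 lower and 1 higher, as 16 fell in A53T and 9 in vector. General astrocyte markers differed in 10 of 24, 9 higher and 1 lower, as 10 fell in A53T and 17 in vector. Aldoc, for example, rose in A53T (0.59 ± 0.10) and fell in vector (-0.77 ± 0.09), a difference of 1.37 ± 0.14, and Pygm likewise (0.88 ± 0.07 and -0.41 ± 0.07, difference 1.29 ± 0.10). Actin genes differed in 9 of 22, 8 lower and 1 higher, with the filamin Flna lower in A53T (-0.60 ± 0.08) and higher in vector (1.24 ± 0.07). Amino acid transporters differed in 7 of 13, 4 higher and 3 lower, and secreted factors of activity in 11 of 26, 10 higher and 1 lower. Early genes of activity differed in 9 of 23 and p53 targets in 9 of 25, each lower. Without either A53T DMSO library the p53 differences numbered 5. The early genes had 4 without A53T DMSO replicate 1 and 6 without the unnumbered library, the secreted factors 6 higher in each fit, and the transporters 1 higher and 2 lower without the unnumbered library. The ER folding list had 3 lower differences of 22, where 6.45% of all genes were lower. The postsynaptic and presynaptic lists had 2 of 28 and 3 of 34 higher ones, where 8.14% of all genes were higher. With the axis covariate these were 6 lower, and 6 and 10 higher. Over all genes that fit had 1446 higher and 1467 lower differences.

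The third dose level, 0.2 µM, had 3 A53T libraries that were counted as 1 sample, so the values are given with no test. At means of 10 to 3000 their squared differences were 0.995 to 1.05 times the noise of counting, or 1.14 to 1.21 times with the step of each library as the worth of 1 read. At means over 3000, where Gfap, Vim, Ddit3 and Hspa5 lie, they were 1.23 to 1.91 times that noise. Along DMSO, 0.2 µM and 2.0 µM, Gfap had 36400 and 34950, then 15680, then 7320, 6555 and 6176 normalized counts. Vim had 18380 and 16970, then 5026, then 4153, 3543 and 3796, and Nptx2 had 1070 and 1245, then 374, then 134, 172 and 102. These 3 genes were lower at each step. Ddit3 had 5731 and 6162, then 3631, then 20960, 13570 and 13440, and Hspa5 had 28280 and 29520, then 30280, then 51600, 45590 and 55360. The 0.2 µM sample also stood apart on the leading axis of variation within groups, with a score of 1.12 where the A53T libraries at 2.0 µM scored -0.54 to 0.03 and those in DMSO 0.12 and 0.18, and the part of that axis in these values was not tested.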

How the data were processed

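RNA was extracted with a Qiagen RNeasy kit and libraries were made with the Illumina TruSeq Stranded mRNA kit, per the labels' protocols. Per the submitters' processing notes, FastQC, TopHat, HTSeq and rn6 were involved; versions, settings and the use of strand are not given in the sources used here. What the authors deposited are normalized gene counts, a signal made by a method of normalization that no source used here gives. Of the values from 0.5 to 60, those within 0.1 of a whole number were 100.0% in A53T 2.0 µM replicate 2 and 13.8% to 25.3% in the other libraries. The best single step per library gave whole multiples, within 0.1 of a step, for 29.3% to 100.0% of them. Whole reads were therefore not recovered for the table, no count model was used and no counting interval is given. Noise ratios take normalized counts as counts. Normalized totals ran from 15091428 to 18335540.

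Values were tested as log2(value + 1) with limma 3.58.1 in R 4.3.3, with a trended prior variance, in 1 fit over the 6 groups. The 3 A53T libraries at 0.2 µM differed by 0.995 to 1.05 times the noise of counting at means of 10 to 3000 and by 1.23 to 1.91 times at higher means, less than any other pair within a group, and were averaged to 1, so the fit held 15 samples with 9 degrees of freedom for the residuals. Adjusted p-values are Benjamini-Hochberg over all 11247 genes, two-sided, with a threshold of 0.05, and every adjusted p in the text is limma's. A minimum mean of 1 removed no gene, since the lowest mean was 1.76. The second A53T DMSO column carries a number that no title has, so it was used as a library of its group with no number.

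The members and the 75 gene lists were chosen with earlier results of these data known. Named genes are the 15 largest rises and falls with a mean of at least 100 in the higher group and no overlap, up to 8 members of each list by smallest p and up to 3 against its direction, the 6 largest differences from vector each way, and all calcineurin, Rcan, Nfat and Fkbp genes. Canx, Ero1b, Mir132 and Mir212 were chosen after their values were seen. Of the 11247 labels, 10458 are current RefSeq symbols, 635 synonyms and 23 date-like. Promoter and miRNA sequences are from RefSeq (GRCr8), and no rn6 coordinates were used. Other pseudocounts, minimums, scalings, sample sets, covariates and replicate blocks were tried, and each library was left out in turn. Some genes that this rule names are not reported here.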

Additional observations from a re-analysis of the deposited data

Results flagged for a closer look

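The response to 2.0 µM FK506 differed between A53T and vector cultures in the following 11 genes, by limma's test of the difference itself (A53T minus vector, log2), and these are among the widest such differences among genes with a mean of at least 100 in the higher group. They were higher in A53T for Crhbp (2.72), Timp4 (2.69), Slco1c1 (2.52), Apln (2.39), Btbd17 (2.34) and Olig1 (2.06). They were lower in A53T for Gdf15 (-6.83), Tagln (-3.41), Fosl1 (-2.78), Fosl2 (-2.78) and Cdkn1a (-2.59). All 11 kept direction and call under every alternative tried. They were chosen for their wide differences in the same data, so this does not measure the stability of all differences. A53T and vector cultures already differed in DMSO in some of them, such as Gdf15, with 380 and 394 normalized counts in A53T, against 47.6, 57.1 and 75.6 in vector.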

How the results depend on the processing

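Of 191 gene calls named for the A53T response, 149 kept direction and call under every alternative, and none of the 191 changed direction; all 13 named differences from vector kept both. These genes were named for small p-values or large changes in the same data, so their shares do not measure the stability of all calls. With only the 2 groups compared in the fit, 915 genes rose and 871 fell, and 352 list members were called. Of the 191 named calls, 28 were lost in that fit, while of the 4233 calls over all genes 1780 kept call and direction. Leaving out 1 library gave 938 to 2455 rises and 899 to 2425 falls, 335 to 780 called list members, and for the difference from vector 334 to 1363 higher and 298 to 1249 lower. With all 17 libraries as separate samples 1101 differences were lower, and with the within-group axis as a covariate 1446 were higher and 1467 lower. Deviations of same-numbered libraries from their group means correlated at -0.51 to 0.67. Libraries with different numbers were not compared in this way, so these values cannot decide whether replicate numbers pair the samples. The unnumbered A53T DMSO library has no title number, so a block by title numbers leaves 1 A53T DMSO library. That fit thus differs from the main one in its libraries as well as in the block, and the effect of the block alone cannot be read from it. With the numbers of the titles as a replicate block 800 genes rose and 788 fell, 311 list members were called, and 207 differences were higher and 180 lower. With the column numbers as the block, which every A53T DMSO library has, 2066 genes rose and 1871 fell. In that fit 636 list members were called, and 682 differences were higher and 553 lower. Genes that did not pass changed sign: Rcan3 was -0.086 with the block by title numbers and ran from -0.156 to 0.726 with 1 library left out. Fkbp1a was -0.067 after quantile normalization, -0.140 with the axis covariate, where it passed as lower (adjusted p = 0.0115), and -0.018 without 2.0 µM replicate 1. Canx was 0.285 with the axis covariate, where it passed as higher (adjusted p = 0.0101), and ran from -0.138 to 0.167 with 1 library left out (0.029 without DMSO replicate 1), and Ero1b was 0.001 after quantile normalization and 0.116 with the axis covariate. The causes were not tested. Raw depth was not recovered, and 2 DMSO libraries limit the precision of every call.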
